A study of Mus musculus with 4 samples.

Results

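The genes described here encode the enzymes that write and remove DNA methylation and the enzymes that write and remove methylation of lysine 27 on histone H3 (H3K27). They were the rows of the deposited expression table named Dnmt1, Dnmt3a, Dnmt3b, Uhrf1, Tet1, Tet2, Tet3, Ezh1, Ezh2 and Kdm6b, so 10 of the 24418 genes listed. The study asked what the epithelial cytokine TSLP does to regulatory T (Treg) cells. Treg cells of the spleen and the lymph nodes were sorted from mice with the Foxp3 YFP-Cre allele, in which the Foxp3 locus drives a fluorescent Cre recombinase, and were cultured for 3 h in TSLP at 100 ng/mL or in PBS, the vehicle, before RNA was sequenced. Both groups carried this allele, and the study used sex-matched mice aged 8 to 12 weeks. Each group had 2 libraries, called PBS 1, PBS 2, TSLP 1 and TSLP 2. The sources used here do not say whether the libraries came from separate mice, so the p-values measure only the spread between these samples, which may be technical.

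In mammals, DNMT3A and DNMT3B methylate cytosines in new places, and DNMT1, guided by UHRF1 to freshly replicated DNA, copies the marks onto the daughter strand. The TET dioxygenases oxidize methylated cytosine, which starts its removal. EZH1 and EZH2 are alternative catalytic subunits of the Polycomb complex PRC2, which methylates H3K27, and KDM6B (also called JMJD3) removes that methylation. Treg cells are known for a demethylated enhancer in the Foxp3 gene on which stable Foxp3 expression depends, for TET2 and TET3 as the enzymes that keep it demethylated, and for a need of EZH2 once they are activated.

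The values deposited for each library are its read counts after division by a size factor, called normalized counts below. PBS 1 held 11328132 reads on genes and PBS 2 held 10724392, and the TSLP libraries held 11761234 and 10271571. All 10 genes had reads in every library and passed the filter for testing, which asked for 10 normalized counts or more in 2 libraries or more and kept 11392 genes. The thinnest was Tet1, which had 24 reads in PBS 1 and 64 in PBS 2, while Kdm6b had 7022 to 11428 reads per library. For a gene with 0 reads, a true level of up to 3 reads could be missed, or 0.255 to 0.292 cpm (reads per 1000000 reads on genes), and this limit covers counting error only.

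The labelled cell type was checked by its markers. Foxp3, the defining transcription factor of Treg cells, was at 222 cpm in PBS 1, 472 cpm in PBS 2, 407 cpm in TSLP 1 and 470 cpm in TSLP 2, so PBS 1 was the low library. Ctla4, a checkpoint receptor of Treg cells, had 1142 to 1284 cpm. The markers of other cells were far lower: the summed level was 7.83 to 13.4 cpm for the 2 CD8 T cell genes (most abundant Cd8b1), 0.618 to 10.4 cpm for the 3 B cell genes (Cd79b) and 8.59 to 17.6 cpm for the 5 myeloid genes (Cd68, with Adgre1 at 0 reads). The 2 NK cell genes reached 2.43 cpm at most (Klrb1c, with Ncr1 at 0 reads), and the 3 erythroid genes 0.681 cpm (Alas2, with Hba-a1 and Hbb-bs at 0 reads). The myeloid genes did not move together. Cd68 was at 15.4 and 6.15 cpm with PBS and at 5.02 and 1.56 cpm with TSLP, and Itgam at 2.03 and 1.77 cpm with PBS and at 0.340 and 0.681 cpm with TSLP, both without overlap. Lyz2 went the other way in the PBS 1 library, at 0.0883 cpm there against 4.01 cpm in PBS 2 and 3.15 and 3.89 cpm with TSLP, and Csf1r had 27 reads in TSLP 2 and at most 1 elsewhere. Itgam had only 4 to 23 reads per library, and 28.9% of all genes tested had groups that did not overlap. The summed level was lowest in PBS 1 for the B cell genes and highest in PBS 1 for the myeloid genes, the latter carried by Cd68, and their part in the results below was not tested. In such bulk samples fewer cells of a type and less RNA per cell cannot be told apart.

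Promoter sequence was looked up for the 10 genes because DNMT1, UHRF1 and EZH2 act at or around DNA replication and because the TSLP receptor signals through STAT5. RefSeq (GRCm38.p6) gave 14 windows of 300 bases, from 250 bases before to 50 after a start site, for 9 of the genes, all but Kdm6b. The letters TTTGGCGC, TTTCCCGC and TTTCGCGC, forms of the E2F motif, were searched on both strands, where matches of opposite strands may overlap. They occurred in 1 window each of Dnmt1, Uhrf1 and Ezh2, so in 3 of 14 windows, and in 1.84% of all 32851 windows. The STAT letters TTCNNNGAA, also on both strands, occurred in 0 of the 14 windows and in 8.30% of all windows, which says only that these letters are not in these windows. A match is a description of letters, not a binding site. The first match of each of the 3 genes is shown with its flanks, 5′ to 3′ on the strand of the gene, with the matching letters in capitals. The Dnmt1 line shows TTTCGCGC read from the opposite strand, and the same window held a TTTGGCGC match further on.
Dnmt1: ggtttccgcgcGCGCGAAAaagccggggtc
Uhrf1: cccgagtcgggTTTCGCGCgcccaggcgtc
Ezh2: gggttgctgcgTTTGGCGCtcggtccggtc
The Dnmt1 stretch lies at chr9:20952824-20952853 on the minus strand, in an untranslated part of a first exon in the GENCODE M21 annotation. The Uhrf1 stretch, at chr17:56304117-56304146 on the plus strand, lies in an intron of the longer transcripts. The Ezh2 stretch, at chr6:47595009-47595038 on the minus strand, spans the start of the untranslated first exon. The number of CG dinucleotides, the bases that DNA methylation acts on, ranged from 2 to 57 in the windows of the 9 genes, and the median over all windows was 7. The Tet2 window held 57 and the first Dnmt1 window 2. The E2F letters contain CG, and the windows that matched held 33 (Dnmt1), 33 (Uhrf1) and 31 (Ezh2). The part of CG content in the matches was not tested.

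The levels of the genes were compared per length, as TPM (reads per kilobase of exon, scaled to 1000000 per library), computed from the recovered reads and the exon lengths of GENCODE M21. Kdm6b was far the most abundant, at 394 and 604 TPM with PBS and at 605 and 418 TPM with TSLP. Its mean over the 4 libraries, 505 ± 115 TPM (SD, n = 4), exceeded the level of 97.2% of the genes tested. Dnmt1 came next at 77.2 ± 10.2 TPM, 6.54-fold lower than Kdm6b and below it in 4 of 4 libraries. Ezh1 (59.4 ± 18.8 TPM), Tet3 (59.0 ± 14.9 TPM), Tet2 (46.1 ± 15.9 TPM) and Ezh2 (39.7 ± 3.98 TPM) followed, and from Dnmt1 to Ezh2 each neighbour in the order overlapped the next in its range over the libraries. Ezh1 and Tet3 differed by a factor of 1.01 in the mean, and Ezh1 was the higher of the pair in 1 of 4 libraries.

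The lower end of the order held Dnmt3a (29.1 ± 7.21 TPM), Uhrf1 (21.8 ± 2.23 TPM), Dnmt3b (9.97 ± 4.96 TPM) and Tet1 (1.07 ± 0.525 TPM). Dnmt3a and Uhrf1 overlapped. Dnmt3b lay 2.19-fold below Uhrf1 and Tet1 lay 9.30-fold below Dnmt3b, both without overlap of the ranges. Tet1 was also near the bottom of all expressed genes, exceeding 3.44% of those tested. These levels rest on the annotated exon length, which is 16642 bases for Dnmt3a against a coding length of 2724 bases. Per coding length Dnmt1 had a mean of 35.8 TPM and stood below Ezh1 (60.0 TPM), Tet3 (55.7 TPM), Dnmt3a (54.3 TPM), Tet2 (41.3 TPM) and Ezh2 (36.3 TPM), so its place and that of Dnmt3a depend on the length used. Kdm6b was still the highest, at 218 TPM, and Uhrf1 (12.1 TPM), Dnmt3b (6.02 TPM) and Tet1 (0.828 TPM) were still the lowest, in the same order.

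**Figure D1:**
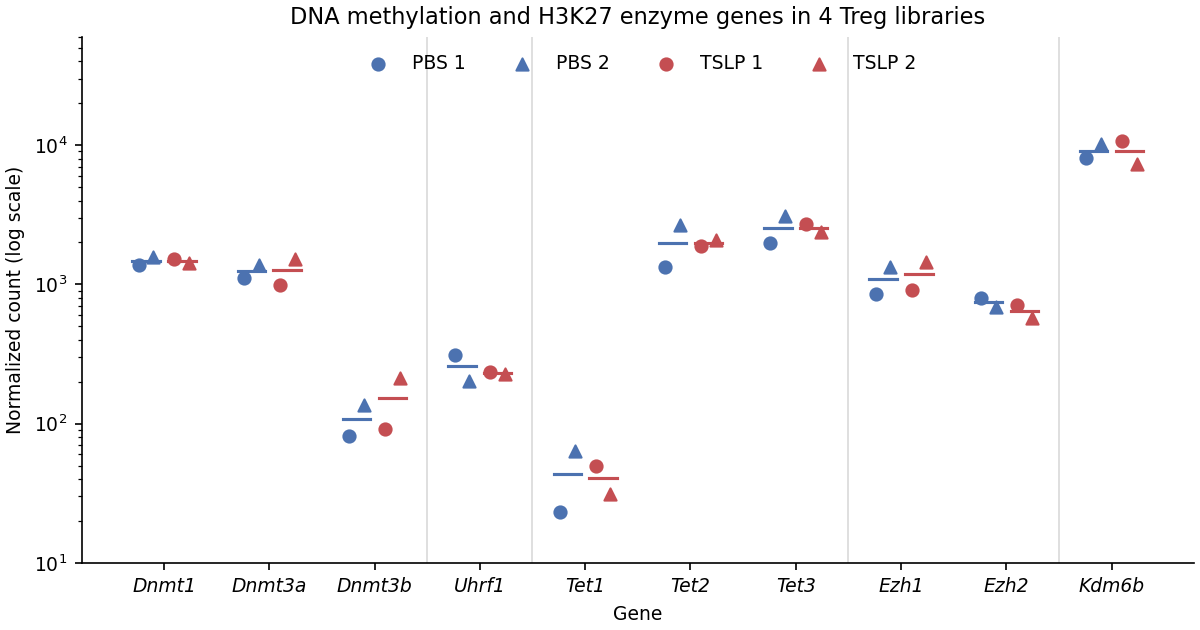
Normalized counts (log axis) of the 10 enzyme genes in the 2 PBS libraries (blue) and the 2 TSLP libraries (red), with circles for replicate 1, triangles for replicate 2 and bars for the group means. In every gene the values of the groups overlap, and the genes span from 23.3 (Tet1 in PBS 1) to 10766 (Kdm6b in TSLP 1). These counts are not divided by gene length.

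To compare TSLP-stimulated with PBS-stimulated Treg cells, limma was run on log2(normalized count + 1) over all 11392 genes, with Benjamini-Hochberg adjustment over all of them. None of the 10 enzyme genes passed the test. By limma 0 of 10 had an unadjusted p under 0.05, where 1.69% of all genes tested had one, and 0 of 10 had groups that did not overlap, where 28.9% of all genes had. At an adjusted p under 0.05 there were 0 calls (0.0% of all genes), and the adjusted p in limma was 0.9999 for each of the 10. edgeR and DESeq2 on the recovered reads also called 0 of all genes at that limit, with 234 genes at an unadjusted p under 0.05 by edgeR against 192 by limma over the same 11392 genes. DESeq2 was run on all 13945 genes with a read in any library, of which 286 had such a p, against 358 by limma without the filter on low counts. Log2 fold changes below set TSLP against PBS. The 1 added before the log makes changes of genes with few reads smaller, but such changes are not always smaller than by edgeR or DESeq2. SE is the standard error and intervals are 95% intervals, both from limma.

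The maintenance pair consists of Dnmt1 (chr9:20907209-20959888, minus strand, mm10) and Uhrf1 (chr17:56303321-56323486, plus strand). Dnmt1 had normalized counts of 1381 and 1572 with PBS and of 1531 and 1420 with TSLP. Both TSLP libraries lay between the PBS libraries. Dnmt1 had a log2 fold change of 0.00 (SE 0.22, interval −0.49 to 0.49, unadjusted p = 0.996, Benjamini-Hochberg adjusted p = 0.9999 in limma), so changes from 0.711-fold to 1.41-fold remained within the interval. It was the steadiest of the 10 genes, with the highest library 1.14-fold above the lowest.

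Uhrf1, whose product recognizes hemimethylated DNA and recruits DNMT1, had normalized counts of 312 and 202 with PBS and of 235 and 229 with TSLP. Here too the TSLP libraries lay between the PBS libraries, with PBS 1 the highest. Its log2 fold change was −0.12 (SE 0.37, interval −0.95 to 0.72, unadjusted p = 0.762). Of the 50-base stretches of Uhrf1 transcripts, 15.4% also occurred in transcripts of other genes, Gm5648 and Gm15953, so reads from these stretches fit more than 1 gene.

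The de novo methyltransferases Dnmt3a (chr12:3806007-3914443, plus strand) and Dnmt3b (chr2:153649450-153687730, plus strand) each had their higher values in PBS 2 and TSLP 2, which are not known to share more than a number. Dnmt3a had normalized counts of 1103 and 1377 with PBS and of 989 and 1527 with TSLP. The TSLP libraries lay outside the PBS libraries on both sides. For Dnmt3a a log2 fold change of −0.00 resulted (SE 0.27, interval −0.62 to 0.61, unadjusted p = 0.989).

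Dnmt3b had normalized counts of 81.4 and 135 with PBS and of 91.4 and 213 with TSLP. The libraries of a group differed by 0.72 on the log2 scale with PBS and by 1.21 with TSLP. The log2 fold change of 0.41 (SE 0.56, unadjusted p = 0.487) was the largest among the 10 genes, and its interval ran from −0.87 to 1.69. It was −0.20 without TSLP 2 and 1.02 without TSLP 1. Of the 50-base stretches of Dnmt3b, 9.81% also occurred in Dnmt3c, a close relative.

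The genes most like Dnmt3b over the 4 libraries, by the root mean square difference of centred log2 values, were Lima1 (0.0551), Gatb (0.0687) and Pikfyve (0.0716). Over only 4 libraries such likeness is a description, and 5 of all genes tested lay within 0.1. Pikfyve, a lipid kinase gene, had normalized counts of 381 and 646 with PBS and of 430 and 896 with TSLP. Its higher values in PBS 2 and TSLP 2, as in Dnmt3b, follow from how it was picked. Lima1 had 23.3 to 60.6 and Gatb 12.6 to 36.6 normalized counts, so both were thin.

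The 3 TET genes were each lowest in PBS 1 and highest in PBS 2. Tet2 (chr3:133463679-133545139, minus strand) had normalized counts of 1323 and 2663 with PBS and of 1888 and 2089 with TSLP. The PBS libraries differed 2.01-fold and enclosed both TSLP libraries. The log2 fold change of Tet2 was 0.08 (SE 0.32, interval −0.64 to 0.80, unadjusted p = 0.804). It was the gene on which the choice of libraries bore most in terms of calls: without PBS 1 the log2 fold change was −0.42 (unadjusted p = 0.0483 by limma, adjusted p = 0.979 with Benjamini-Hochberg adjustment), and without PBS 2 it was 0.59 (unadjusted p = 0.0205 by limma, adjusted p = 0.269 with Benjamini-Hochberg adjustment). Each of these fits assumes that the lone PBS library varies like the TSLP pair.

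Tet3 (chr6:83362373-83459084, minus strand) had normalized counts of 1985 and 3085 with PBS and of 2703 and 2372 with TSLP. PBS 1 was lowest and PBS 2 highest, as for Tet2. Its log2 fold change was 0.03 (SE 0.26, interval −0.55 to 0.62, unadjusted p = 0.901). Tet1 (chr10:62804570-62908996, minus strand) had normalized counts of 23.3 and 64.0 with PBS and of 49.9 and 31.4 with TSLP, again with PBS 1 lowest and PBS 2 highest. Its log2 fold change was 0.03 (SE 0.85, unadjusted p = 0.971), and the interval from −1.88 to 1.95 was the widest of the 10 genes, so changes from 0.271-fold to 3.85-fold remained within it.

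Of the PRC2 catalytic subunits, Ezh1 (chr11:101191115-101226463, minus strand) had normalized counts of 853 and 1329 with PBS and of 914 and 1444 with TSLP. The libraries of a group differed by 0.64 on the log2 scale with PBS and by 0.66 with TSLP. Ezh1 had a log2 fold change of 0.11 (SE 0.31, interval −0.59 to 0.81, unadjusted p = 0.730). Ezh2 (chr6:47530139-47595341, minus strand), the subunit of dividing cells, had normalized counts of 801 and 688 with PBS and of 715 and 571 with TSLP. TSLP 1 lay above PBS 2, so that the groups overlapped. The log2 fold change of Ezh2 was −0.22 (SE 0.26, interval −0.80 to 0.37, unadjusted p = 0.422), and it ranged from −0.38 to −0.05 when each library was left out in turn.

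Kdm6b (chr11:69398508-69413675, minus strand), the H3K27 demethylase, had normalized counts of 8056 and 10176 with PBS and of 10766 and 7338 with TSLP. The TSLP libraries lay outside the PBS libraries on both sides. Kdm6b had a log2 fold change of −0.03 (SE 0.27, interval −0.64 to 0.59, unadjusted p = 0.924).

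**Figure D2:**
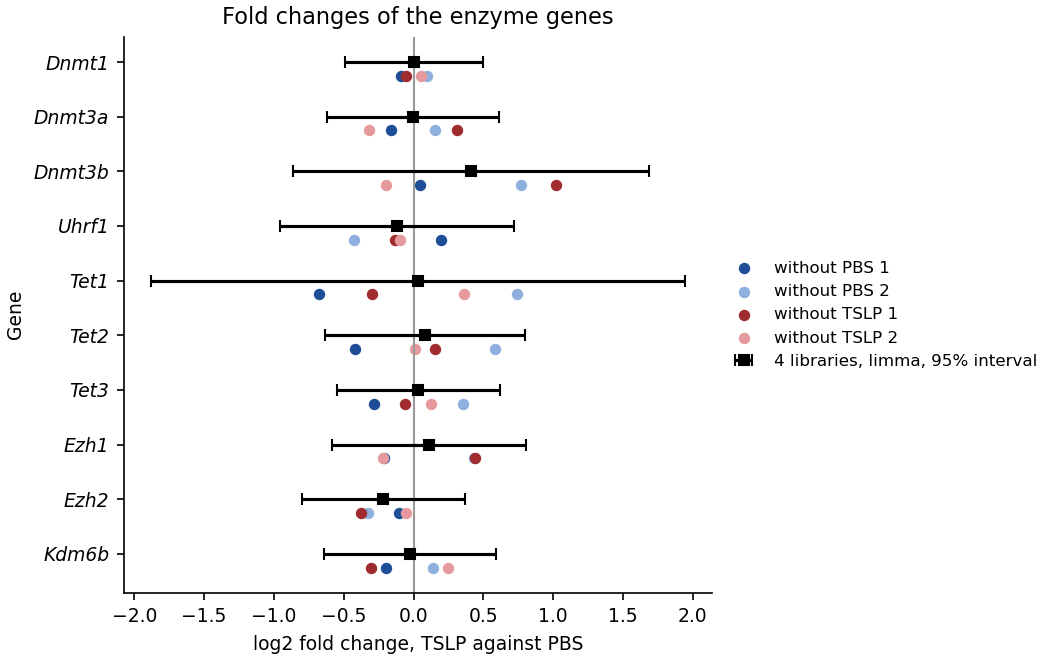
Log2 fold changes, TSLP against PBS, of the 10 enzyme genes (x axis) with their 95% intervals from limma on all 4 libraries (black squares and bars), and the fold changes with each library left out in turn (coloured points). Every interval includes 0, and the points of 9 genes fall on both sides of 0, the exception being Ezh2.

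Reads of some of these genes could be mixed with those of other genes. Exons of Dnmt3a, Tet2, Ezh2 and Kdm6b overlap exons on the opposite strand, of Dnmt3aos, Gm42567, Gm26625 and Kdm6bos respectively, and the strand setting of the counting is not given in the sources used here, so the reads of such a pair may not be separated. Dnmt3aos itself had 0 reads in every library. For the 8 genes other than Uhrf1 and Dnmt3b, at most 2.19% of the 50-base stretches (Kdm6b) also occurred in another gene, and 0 of the 10 genes shared a stretch with another of the 10.

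Paralogs were then set side by side as each gene's share of the reads per kilobase of exon of its family. Among the DNA methyltransferases, Dnmt1 took the greatest share, at 69.5% and 66.1% with PBS and 72.9% and 59.1% with TSLP. Dnmt3a took 20.9% to 28.1% and Dnmt3b 5.92% to 12.8%, the latter highest in TSLP 2. With PBS the Dnmt3b share was 7.06% ± 1.62 (SD, n = 2), and with TSLP it was 9.54% ± 4.61 (SD, n = 2), a difference of 2.48 percentage points (two-sided exact permutation p = 0.667) that turned to −0.78 without TSLP 2. With 2 libraries against 2, this test cannot go below 0.33. Per coding length the mean share was 37.9% for Dnmt1 and 56.1% for Dnmt3a, which turns their order, while Dnmt3b stayed lowest at 6.03%.

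In the TET family, Tet3 was above Tet2 in 4 of 4 libraries, with shares of 59.8% and 53.3% with PBS and of 58.4% and 53.0% with TSLP. Tet1 took 0.757% to 1.19%. The mean Tet3 share in PBS-stimulated cells, 56.5% ± 4.61 (SD, n = 2), exceeded that in TSLP-stimulated cells, 55.7% ± 3.82 (SD, n = 2), by 0.806 percentage points, a difference smaller than the spread within a group, and without PBS 1 or without TSLP 2 the TSLP mean was the higher, by 2.45 and 1.90 percentage points. Per coding length the mean shares of Tet3 and Tet2 were 57.5% and 41.7%, so here the order did not depend on the length used.

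The PRC2 pair was the family whose makeup differed most between libraries. Ezh1 took 48.9% and 63.4% of the pair with PBS and 53.4% and 69.4% with TSLP. The ratio of Ezh1 to Ezh2 was thus 0.956 and 1.73 with PBS and 1.15 and 2.27 with TSLP, so each group held a library with near equal levels and a library with more Ezh1. In the PBS group the Ezh1 share averaged 56.1% ± 10.3 (SD, n = 2) and in the TSLP group 61.4% ± 11.3 (SD, n = 2), a difference of 5.29 percentage points (two-sided exact permutation p = 0.667) that was smaller than the spread within either group. It turned to −1.97 without PBS 1 and to −2.72 without TSLP 2, and was 12.5 without PBS 2 and 13.3 without TSLP 1.

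**Figure D3:**
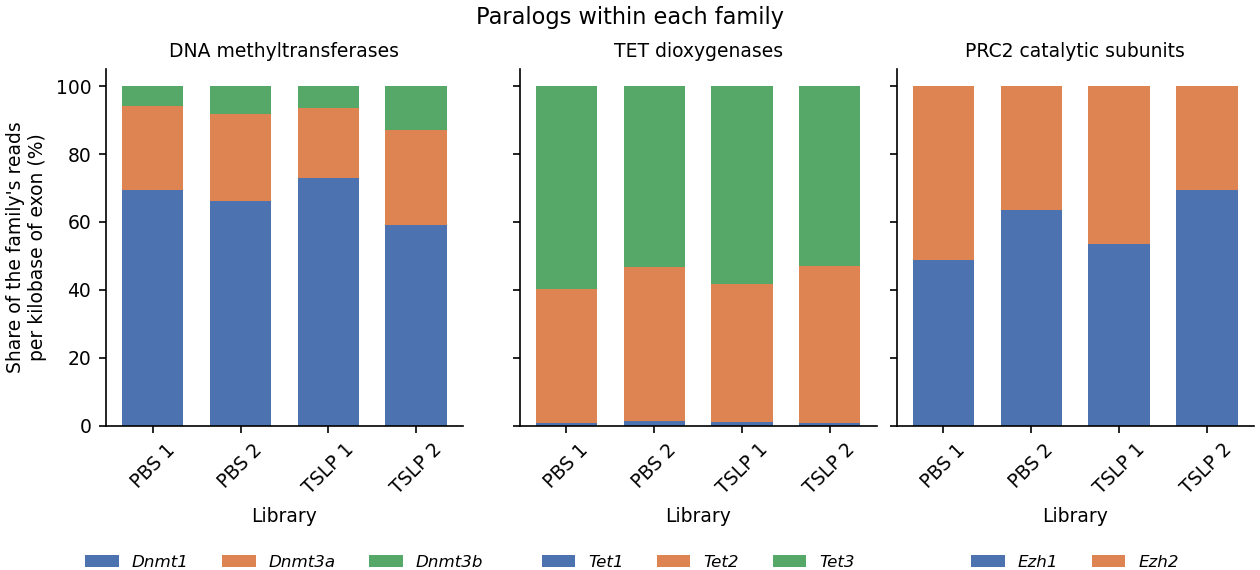
Share of each paralog (y axis, percent of the summed reads per kilobase of exon of its family) in the 4 libraries (x axis), for the DNA methyltransferases, the TET dioxygenases and the PRC2 catalytic subunits. Dnmt1 and Tet3 take the greatest share of their families in every library, Tet1 is hardly visible, and Ezh1 ranges from 48.9% to 69.4%.

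The libraries differed with gene length, and several of these genes are long. Across 2679 genes that had 1000 reads or more on average, the log2 deviation of PBS 1 fell with exon length (Spearman rho −0.657 across genes, which are not independent replicates). The deviations are from the mean of the same 4 libraries and sum to 0 for each gene, so a fall in one library is balanced by a rise in the sum of the others. The values of 0.569 for PBS 2, 0.399 for TSLP 1 and 0.303 for TSLP 2, and of 0.520 for the difference of TSLP from PBS, are therefore not separate observations. PBS 1 was the lowest library for 35.6% of all genes tested, for 69.2% of the 1052 tested genes with over 10000 bases of exon, and for 6 of the 10 enzyme genes, namely Dnmt1, Dnmt3b, Ezh1 and the 3 TET genes. The median exon length was 7409 bases for the 10 enzyme genes and 4466 bases for the genes tested.

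The deviation of PBS 1 from the mean of the 4 libraries was −0.73 for Tet1, −0.55 for Tet2 and −0.33 for Tet3 on the log2 scale. The 3 genes have 15457 to 16870 bases of exon, and the median over genes with more than 14000 bases was −0.46. Dnmt3a, with 16642 bases, was at −0.16 in PBS 1 and was lowest in TSLP 1, at −0.31. Uhrf1 (0.37) and Ezh2 (0.22) lay above the mean in PBS 1, where the medians in their ranges of exon length were 0.02 and −0.12. Of the 10 genes Uhrf1 is the shortest. Dnmt3b, at −0.57, was low in PBS 1 although its exon length of 5106 bases is in a range where the median was −0.03.

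When the trend over exon length was removed from each library before limma, the log2 fold changes of Tet1, Tet2 and Tet3 were −0.25, −0.22 and −0.26, and so turned from slightly positive to negative. Dnmt3a, also long, moved to −0.30, and Dnmt1 to −0.09. Those of Dnmt3b (0.39), Ezh1 (0.01), Ezh2 (−0.28), Uhrf1 (−0.12) and Kdm6b (−0.11) kept their direction. This removal shifted the median of all genes to −0.03, and 0 of the 10 genes reached an unadjusted p under 0.05 with it. The part of gene length in the values of any single gene was not tested.

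**Figure D4:**
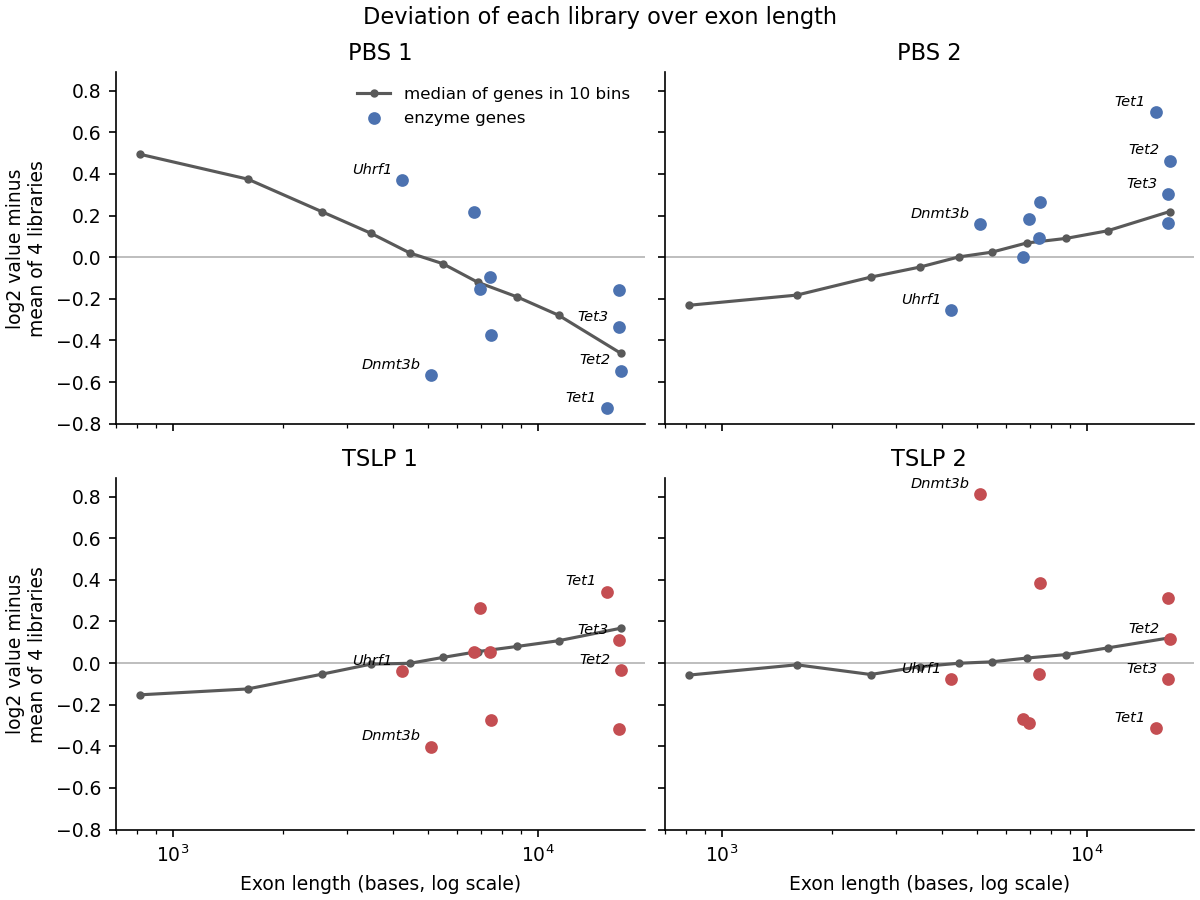
Log2 value of each library minus the mean of the 4 libraries (y axis) over exon length in bases (log x axis), as the median of genes in 10 length bins (grey line, genes with 100 reads or more on average) and for the 10 enzyme genes (coloured points). The grey line falls from 0.49 to −0.46 in PBS 1 and rises in the other 3 libraries, which the common mean balances against PBS 1. The TET genes and Dnmt3a lie at its long end, and Dnmt3a is at −0.16 in PBS 1.

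Genes that act with these enzymes were read from 6 lists of 75 genes in all, of which 71 passed the filter. Of all 11392 genes tested, 5838 had a positive and 5554 a negative log2 fold change. With TSLP 43 of the 71 had a positive and 28 a negative one, with a median of 0.08 against 0.01 for all genes tested. An unadjusted p under 0.05 was found for 1 gene higher with TSLP (0.772% of all genes tested) and for 1 lower (0.913% of all genes), while by edgeR 0 of the 71 had one and by DESeq2 1. TSLP 1 and TSLP 2 both exceeded PBS 1 and PBS 2 in 13 of the 71 genes, where 14.5% of all genes tested did, and lay below both in 7, where 14.4% of all genes did. Without PBS 1 the median was −0.01.

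The readers of methylated DNA (9 genes) had a median of 0.12, or 0.08 to 0.30 with each library left out in turn. By edgeR and by DESeq2 the median was 0.04. This list included the gene with the p under 0.05 that was higher. This was Zbtb38, a zinc finger protein that binds methylated CG, with normalized counts of 505 and 910 with PBS and of 1315 and 992 with TSLP. TSLP 1 was the highest and PBS 1 the lowest, which gave a log2 fold change of 0.75 (SE 0.32, unadjusted p = 0.0423, Benjamini-Hochberg adjusted p = 0.9999 in limma), and it was 0.33 without PBS 1. With the trend over exon length removed it was 0.54 and the unadjusted p was 0.0506 in limma. Uhrf2, the paralog of Uhrf1, had the most reads of this list, at 2578 and 2779 with PBS and 2806 and 2714 with TSLP, with a log2 fold change of 0.04.

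Of the 10 DNA methyltransferase partners, 9 were tested (median 0.02, or −0.05 to 0.09 with each library left out in turn), and Dnmt3l, a cofactor of germ cells, had 0 reads in every library. The gene lower with TSLP at an unadjusted p under 0.05 was Ahcy, which clears S-adenosylhomocysteine, the product that inhibits methyltransferases. It had normalized counts of 440 and 420 with PBS and of 324 and 177 with TSLP. For Ahcy the log2 fold change was −0.84 (SE 0.37, unadjusted p = 0.0474, Benjamini-Hochberg adjusted p = 0.9999 in limma), and it ranged from −1.28 to −0.41 with each library left out in turn. Its unadjusted p was 0.0559 by edgeR and 0.0838 by DESeq2. Cdca7, part of a remodelling complex needed for DNA methylation, did not overlap either, at 188 and 137 with PBS and 205 and 295 with TSLP (log2 fold change 0.61, unadjusted p = 0.162, 0.35 without TSLP 2). Usp7, a deubiquitinase that binds DNMT1 and UHRF1, had the most reads of the list, and its log2 fold change was 0.24 (SE 0.22). For Usp7 it was 0.15 without PBS 1 and 0.13 with the trend over exon length removed.

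Genes of active demethylation and of the TET cofactor (11 of 13 tested) had a median of −0.17, which turned to 0.16 without PBS 1 and to 0.10 without TSLP 2 and was −0.44 without TSLP 1. Gadd45a, a stress gene linked to demethylation, had normalized counts of 846 and 462 with PBS and of 437 and 361 with TSLP. Both TSLP libraries were the lower, with a log2 fold change of −0.65 (SE 0.34, unadjusted p = 0.0856), which was −0.22 without PBS 1. Its relative Gadd45b was the most abundant gene of the list, at 16566 and 6629 with PBS and 11194 and 6074 with TSLP, with groups that overlapped. Tdg, the glycosylase that excises oxidized cytosine, had 6 reads in PBS 2 and 0 in the other 3 libraries, but 41.2% of its 50-base stretches also occur in other genes such as Tdg-ps, so its counting is uncertain.

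The partners of EZH1 and EZH2 in PRC2 (11 of 12 tested, median 0.12, or 0.04 without PBS 1 and 0.03 with the trend over exon length removed) included the core subunits Eed and Suz12. Eed had normalized counts of 1546 and 1121 with PBS and of 1169 and 1142 with TSLP, with a log2 fold change of −0.19 (SE 0.24), or 0.04 without PBS 1. Suz12 had 2017 and 2492 with PBS and 2452 and 2431 with TSLP, with a log2 fold change of 0.12 (SE 0.22), or −0.03 without PBS 1. Both genes had overlapping groups. Aebp2, an accessory subunit, had the most reads of the list and a log2 fold change of 0.07. For Aebp2 it was 0.04 without PBS 1, 0.11 without PBS 2 and −0.10 with the trend over exon length removed. Lcor, whose locus also encodes an accessory subunit, had 38.8 and 169 with PBS and 223 and 193 with TSLP (log2 fold change 1.34, SE 0.66, unadjusted p = 0.0736). PBS 1 stood apart from the other 3 libraries in Lcor, and without it the log2 fold change was 0.30.

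The genes acting against H3K27 methylation (12 genes) had the highest median of the 6 lists, 0.27. Of their log2 fold changes 10 were positive and 2 negative, against 5838 and 5554 over all genes tested. Their exon lengths had a median of 10031 bases, and PBS 1 was the lowest library in 9 of the 12. The median was −0.06 without PBS 1, 0.69 without PBS 2 and 0.05 with the trend over exon length removed. Kdm6a, the demethylase paralogous to Kdm6b, had normalized counts of 1348 and 2192 with PBS and of 2106 and 1538 with TSLP, with a log2 fold change of 0.07 (SE 0.29), which was −0.28 without PBS 1 and −0.16 without TSLP 1. Uty, its copy on the Y chromosome, had 1367 and 2101 with PBS and 2624 and 2205 with TSLP, with no overlap (log2 fold change 0.51, SE 0.26, unadjusted p = 0.0845), and its log2 fold change was 0.20 without PBS 1, 0.82 without PBS 2 and 0.34 with the trend over exon length removed. Kmt2d, a methyltransferase for another lysine of histone H3, had the most reads of the list, and its log2 fold change of 0.22 was −0.40 without PBS 1.

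PRC1, the Polycomb complex that binds methylated H3K27, was represented by 19 genes with a median of −0.01, which was −0.19 without PBS 1 and 0.12 without TSLP 1. Its member Cbx8, a reader of that mark, had normalized counts of 126 and 176 with PBS and of 110 and 73.2 with TSLP (log2 fold change −0.72, SE 0.50, unadjusted p = 0.181, −0.43 without TSLP 2). Kdm2b, which recruits PRC1 to unmethylated CG islands, had the most reads and a log2 fold change of 0.20 (SE 0.28), which was −0.19 without PBS 1, 0.59 without PBS 2 and 0.01 with the trend over exon length removed.

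Because Dnmt1, Uhrf1 and Ezh2 are linked to cell division, 16 genes of replication and the cell cycle were read beside them. Their median was −0.26, and it was −0.05 without PBS 1, −0.08 without TSLP 2 and −0.41 without TSLP 1. There were 6 positive and 10 negative log2 fold changes, against 5838 and 5554 over all genes tested. Of the 16 genes, 25% had groups that did not overlap, where 28.9% of all genes tested had. By limma 1 of the 16 had an unadjusted p under 0.05, where 1.69% of all genes tested had one. Cdk1, the mitotic kinase, had normalized counts of 80.4 and 76.0 with PBS and of 13.2 and 13.6 with TSLP. Both TSLP libraries were far below both PBS libraries, with a log2 fold change of −2.46 (SE 0.83, unadjusted p = 0.0156, Benjamini-Hochberg adjusted p = 0.9999 in limma) and of −2.50 to −2.42 with each library left out in turn. With the replicate number as a block in edgeR the unadjusted p of Cdk1 was 0.0530. E2f1, an activating E2F factor, had 104 and 134 with PBS and 63.1 and 34.5 with TSLP, also without overlap (log2 fold change −1.32, SE 0.61, unadjusted p = 0.0586). Ccne1, a cyclin of S phase entry, went the other way, at 64.0 and 98.0 with PBS and 109 and 149 with TSLP (log2 fold change 0.68, unadjusted p = 0.227, 0.38 without PBS 1). Mcm6, of the replicative helicase, had the most reads and a log2 fold change of −0.03.

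The Foxp3 gene, whose enhancer is a known substrate of the DNMT and TET enzymes, had normalized counts of 2437 and 5068 with PBS and of 4507 and 5041 with TSLP. PBS 1 was low and the other 3 libraries lay close together. Its log2 fold change was 0.44 (SE 0.33, unadjusted p = 0.211), and it was −0.09 without PBS 1. Ctla4 had the most reads of the 8 Treg identity genes, with a log2 fold change of 0.02.

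**Figure D5:**
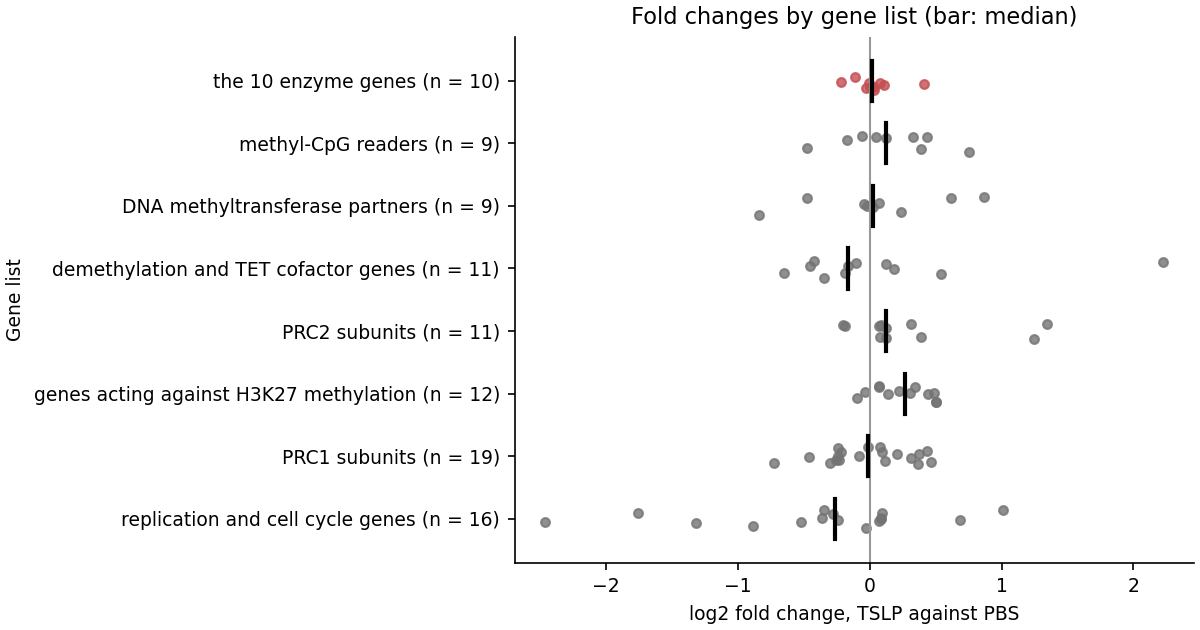
Log2 fold changes, TSLP against PBS (x axis), of the 10 enzyme genes (red), of the 6 pathway lists and of replication and cell cycle genes (grey), with each gene that passed the filter as a point and the median as a black bar. The enzyme genes lie between −0.22 and 0.41, and the point furthest to the left is Cdk1 at −2.46.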

How the data were processed

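RNA was sequenced from Treg cells in 4 libraries, 2 with PBS and 2 with TSLP. The authors mapped 50-base single-end reads to mm10 with HISAT2 and counted them with HTSeq from directional libraries. The labels and the methods name different RNA extraction reagents, and the HISAT2 version, the gene annotation and the strand setting are not given in the sources used here. The deposited values are a signal, read counts that the authors divided by a size factor per library. Of 24418 gene names, 27 had turned into dates. All values (100%) lay within 0.01 of whole reads after rescaling, so reads were recovered.

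Since normalized values are not counts, limma 3.58.1 in R 4.3.3 was run on log2(normalized count + 1) with a trended prior. Alternatives were edgeR 4.0.16 (quasi-likelihood, TMM) and DESeq2 1.42.0 on recovered reads, TMM scaling, pseudocounts of 0.5 and 5, no filter or a minimum of 50, a replicate block, removal of the trend over exon length, leaving out each library, and for shares coding length and reads + 1. The fits were checked on simulated data. Exon lengths came from GENCODE M21, found for 23307 genes. The 10 genes and the lists were chosen with earlier results of these data known. Of each list the text names genes with an unadjusted p under 0.05, genes whose groups did not overlap with a log2 fold change of at least 0.5 in size, and the gene with most reads, besides Eed, Suz12, Kdm6a and Foxp3, and the 3 genes most like the enzyme gene that moved most. Dnmt3l and Tdg, which did not pass the filter, are named as well, as are markers of other cells. Sequences came from RefSeq.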

Additional observations from a re-analysis of the deposited data

How the results depend on the processing

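With 2 libraries per group, intervals were wide and small changes could not be told from none. No setting gave a gene with an adjusted p under 0.05 by limma, edgeR or DESeq2. Libraries with the same replicate number are not known to share more than that number. The differences between replicates 1 and 2 in the 2 groups hardly correlated across 8205 genes (Pearson r = 0.0204), which does not show how the samples were prepared. The replicate block gave 0 genes at an adjusted p under 0.05, 258 at an unadjusted p under 0.05 by limma against 192 without it, and 215 by edgeR against 234 without it.

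Without a filter on low counts 358 genes had an unadjusted p under 0.05. Of the pathway genes, 2 had one by limma, 0 by edgeR and 1 by DESeq2. Several enzyme genes had log2 fold changes near 0 whose sign turned. By edgeR they were −0.00275 for Dnmt1, 0.0183 for Dnmt3a, −0.10 for Tet1, −0.00546 for Tet2 and −0.000206 for Tet3. By DESeq2 they were −0.000819 for Dnmt1, 0.0207 for Dnmt3a, −0.10 for Tet1 and −0.00335 for Tet2. Dnmt1 was at −0.000902 after TMM scaling and at −0.000848 by edgeR with the replicate block. With the trend over exon length removed they were −0.0926 for Dnmt1, −0.25 for Tet1, −0.22 for Tet2 and −0.26 for Tet3, and among other genes −0.10 for Aebp2, −0.0622 for Kdm6a, −0.11 for Kmt2d and −0.0910 for Uhrf2, while the difference in the Dnmt1 share was 0.29 percentage points. The cause was not tested.

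Leaving out each library in turn, the number of genes at an unadjusted p under 0.05 ranged from 79 without TSLP 2 to 1858 without PBS 2, that of pathway genes from 0 to 19 and that of the enzyme genes from 0 to 1. The log2 fold changes ranged from −0.0921 to 0.0943 for Dnmt1, −0.32 to 0.31 for Dnmt3a, −0.20 to 1.02 for Dnmt3b, −0.43 to 0.20 for Uhrf1, −0.68 to 0.74 for Tet1, −0.42 to 0.59 for Tet2, −0.28 to 0.35 for Tet3, −0.22 to 0.44 for Ezh1 and −0.30 to 0.25 for Kdm6b. Among other genes they ranged from −0.0772 to 0.13 for Ctla4, −0.42 to 0.0444 for Eed, −0.0883 to 0.97 for Foxp3, −1.01 to 0.31 for Gadd45b, −0.19 to 0.59 for Kdm2b, −0.28 to 0.42 for Kdm6a, −0.40 to 0.85 for Kmt2d, −0.17 to 0.12 for Mcm6, −0.0297 to 0.28 for Suz12 and −0.0104 to 0.0979 for Uhrf2. Differences in shares, in percentage points, ranged from −8.75 to 5.05 for Dnmt1, −4.27 to 3.01 for Dnmt3a, −0.78 to 5.74 for Dnmt3b, −0.23 to 0.20 for Tet1, −2.22 to 3.86 for Tet2, −4.07 to 2.45 for Tet3, −2.72 to 13.3 for Ezh1 and −13.3 to 2.72 for Ezh2.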
